A study of Caenorhabditis elegans with 8 samples.

Results

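The 10 genes described here form the core of the sex determination pathway of Caenorhabditis elegans and its germline branch: xol-1, her-1, tra-2, fem-1, fem-2, fem-3, tra-1, fog-1, fog-2 and fog-3. They were chosen by name, with earlier results of these data known, from the 20541 genes that each deposited table lists, and all 10 were found and tested in both tables. The tables come from polyadenylated RNA of whole young adult worms, synchronized through a timed egg lay, of the wild type strain N2 and of HC125. According to the design text, the animals were either wild type or carried Psid-1::gfp, in which green fluorescent protein is driven from the sid-1 promoter. The labels do not tie HC125 to the transgene by name; it is taken here as the transgenic strain because N2 is the wild type. Replicates 1 and 2 of N2 and of HC125 make up the paired-end experiment, without strand information. Replicates 3 and 4, from another library kit, make up the stranded single-end experiment. Pairs of values below give N2 first and HC125 next. Each table gives 1 FPKM value per gene and strain, pooled over 2 libraries. FPKM (fragments per kilobase of transcript, relative to all mapped fragments) allows for gene length. Ratios between genes still differed between the experiments, as given below, so a comparison of different genes describes 1 table only. The number of reads is unknown, and no value of a single library can be given. The labels do not give the cultures behind the replicates, and the deposited p-values therefore reflect only how far libraries vary, which may be technical.

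In worms the ratio of X chromosomes to autosomes sets sexual fate through a chain of inhibitors. XOL-1 is the switch that is on in XO males and off in XX hermaphrodites. In males HER-1, a secreted ligand, blocks the membrane receptor TRA-2, which frees FEM-1, FEM-2 and FEM-3 to promote the degradation of TRA-1, a zinc finger transcription factor that represses male genes. An XX hermaphrodite has a female soma but makes sperm in the last larval stage before its germline turns to oocytes for the rest of life. FOG-2 and the RNA-binding protein GLD-1 repress translation of tra-2 RNA to allow sperm, and FBF and NOS-3 later repress fem-3 RNA to allow the switch to oocytes. FOG-1 and FOG-3 are the last members of the germline branch and commit germ cells to sperm. Much of this control acts on translation and protein stability, which RNA levels do not measure.

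sid-1, whose promoter the transgene carries, separated the strains in both tables. It measured 31.9 FPKM in N2 and 2.11 FPKM in HC125 with paired ends, against 12.9 FPKM in N2 and 0.818 FPKM in HC125 with single ends. In the authors' deposited tables, 0.212% of 15114 tested genes and 0.122% of 13150 tested genes were called at a q of 0.05 or less. The tissue label was checked on marker lists. Germline markers summed to 1342 FPKM in N2 and 1361 FPKM in HC125 with paired ends, and to 1130 and 1106 FPKM with single ends. Oocyte markers summed to 6821 and 6142 FPKM, then to 11823 and 11094 FPKM. Sperm markers were present at far lower sums of 108 and 99.4 FPKM, then 32.0 and 41.1 FPKM. All 8 male markers found were under 1 FPKM in every pooled value, and cwp-1 of the male-specific neurons (named after its values were seen) was listed at 0 in all of them. Of 10 early embryo markers, 7 (paired ends) and 6 (single ends) were under 1 FPKM in both strains.

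No sex determination gene was called different between HC125 and N2 in either experiment. By the authors' deposited q-values, 0 of 10 were called at 0.05 or less. The unadjusted p was under 0.05 for 0 of 10 as well, a level that 1.28% of all tested genes reached with paired ends and 2.39% with single ends. At those background shares a count of 0 among 10 genes says little about the genes as a group. Combining the p-values of the tables by Stouffer's method called 35 of 12954 genes and also called 0 of the 10, with a smallest combined p of 0.511, for fem-1. In the paired-end experiment 2 of the 10 had a higher value in HC125 and 8 a lower one, with a median log2(FPKM + 1) ratio of HC125 over N2 of -0.09. The median over all tested genes there was -0.03, and 58.3% of them were lower in HC125. With single ends 4 were higher and 6 lower, where 60.0% of all tested genes were lower. The median of the 10 was -0.02 beside -0.04 over all tested genes, and it becomes 0.02 after centring on the latter. With whole worms, fewer cells of a type and less RNA per cell cannot be told apart.

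The tables bound the size of a change more tightly for the 7 genes above 5 FPKM than for her-1, xol-1 and fog-3. Among those 7 the error did not follow the level. With paired ends tra-2, at 31.9 FPKM in N2, had an error of 0.82 on the log2 scale, beside 0.49 for tra-1 at 11.7 FPKM. The error of a log2 ratio is taken as that ratio divided by the authors' test statistic, and a 95% interval is built from it. That interval lay within 2-fold in either direction for 3 of the 10 in the paired-end experiment, where 25.1% of all genes with an error had such an interval. With single ends it did so for 7 of the 10, against 52.8% of all genes. With the errors implied by the deposited p-values instead, the numbers were 5 and 7. Combining both experiments by inverse-variance weights gave intervals within 2-fold for 7 genes and within 1.5-fold for 4, and 0 of the 10 intervals left out a ratio of 1. No share over all genes was computed for the combined intervals or for those from the deposited p-values, so their counts lack a background.

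**Figure D1:**
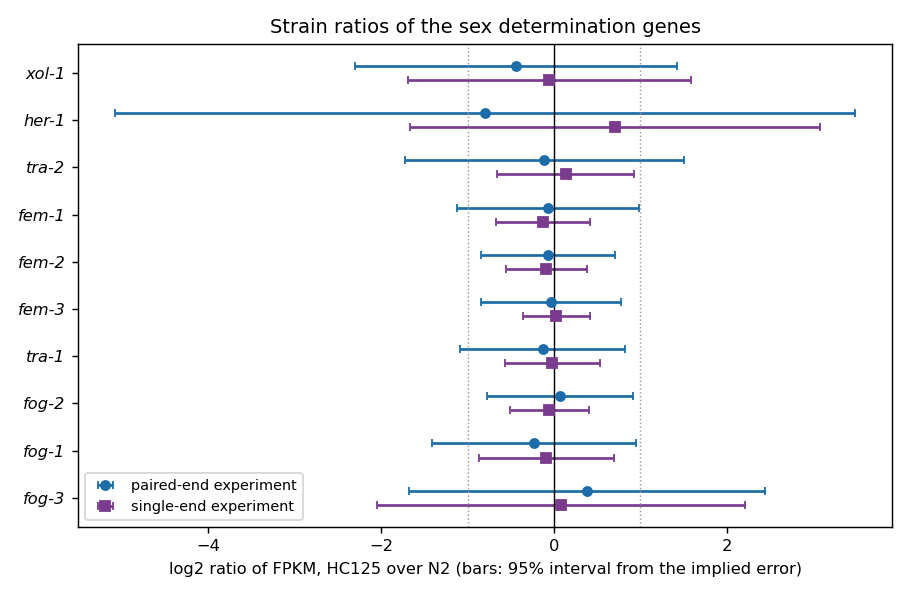
Strain ratio of each of the 10 genes on the log2 scale (HC125 over N2; points are pooled FPKM ratios, bars are 95% intervals from the implied error) in the paired-end and single-end experiments, with dotted lines at 2-fold. Every interval spans 0, and the bars of her-1, xol-1 and fog-3, the genes near 1 FPKM, reach past both dotted lines in both experiments. The bar of tra-2 does so in the paired-end experiment.

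The genes that act first in the pathway were near the floor of the tables in both strains. xol-1, the switch that is silent in XX animals after early development, measured 1.65 FPKM in N2 and 1.21 FPKM in HC125 with paired ends, against 1.04 FPKM in N2 and 0.998 FPKM in HC125 with single ends. It is X-linked, and its level in N2 lay at percentiles 43.3 and 45.4 of all listed genes. The ratio of HC125 over N2 was 0.735 (95% interval 0.202 to 2.67) and 0.964 (0.310 to 2.99), with p = 0.475 and p = 0.924 in the authors' deposited tables.

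her-1, which encodes the male ligand, had the widest intervals. It measured 0.974 FPKM in N2 and 0.561 FPKM in HC125 with paired ends, against 0.598 FPKM in N2 and 0.975 FPKM in HC125 with single ends. The order of the strains was thus opposite in the experiments. The ratio was 0.576 (95% interval 0.0296 to 11.2) with p = 0.441 in the first, and 1.63 (0.314 to 8.45) with p = 0.381 in the second, in the authors' deposited tables. The difference of the log2 ratios, single-end minus paired-end, was 1.5 ± 2.5 (implied SE), so the opposite order is within the error. Of the male markers, try-5, a protease of the male seminal fluid, lay within the range of the her-1 levels, with 0.888 and 0.869 FPKM with paired ends, against 0.725 and 0.792 FPKM with single ends. cwp-4 measured 0.255 and 0.215 FPKM with paired ends, against 0.541 and 0.339 FPKM with single ends. cwp-5 was lower, at 0.156 and 0.0729 FPKM, then 0.0474 and 0.0377 FPKM. The part of male markers in the her-1 values was not tested.

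tra-2, the receptor that HER-1 blocks and the RNA that FOG-2 and GLD-1 repress, was expressed at middle levels. It measured 31.9 FPKM in N2 and 29.5 FPKM in HC125 with paired ends, against 24.8 FPKM in N2 and 27.3 FPKM in HC125 with single ends. The strains lay close together in each table, in opposite order. The ratios were 0.927 (95% interval 0.304 to 2.83) and 1.10 (0.634 to 1.91), with p = 0.849 and p = 0.661 in the authors' deposited tables. Its deposited locus is shared with ceh-38, a homeobox gene on the opposite strand, and the WBcel235 annotation has 26 exon bases in common. ceh-38 measured 74.4 and 69.7 FPKM with paired ends, against 30.1 and 29.1 FPKM with single ends. The paired-end libraries carry no strand information, so reads over the shared bases cannot be assigned there.

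The fem genes were among the most abundant of the 10, and their strain values lay close together. fem-2, a protein phosphatase of the PP2C family, measured 89.3 FPKM in N2 and 85.4 FPKM in HC125 with paired ends, against 87.0 and 81.8 FPKM with single ends. fem-1, an ankyrin repeat protein that links its partners to a cullin ubiquitin ligase, measured 57.8 and 55.2 FPKM with paired ends, against 49.4 and 45.3 FPKM with single ends. The HC125 value of fem-2 was 95.7% and 94.0% of that in N2, and for fem-1 it was 95.4% and 91.8%. For both genes the N2 value was the higher in each experiment, by less than the implied error: the log2 ratio of fem-1 was -0.07 ± 0.54 and -0.12 ± 0.28, and that of fem-2 was -0.06 ± 0.40 and -0.09 ± 0.24. In the authors' deposited tables, fem-1 had p = 0.810 and p = 0.491, and fem-2 p = 0.823 and p = 0.609.

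fem-3, the RNA on which the switch from sperm to oocytes turns, had the narrowest single-end interval of the 10. It measured 89.9 FPKM in N2 and 87.9 FPKM in HC125 with paired ends, against 30.2 FPKM in N2 and 30.8 FPKM in HC125 with single ends. The HC125 value was 97.8% and 102% of that in N2, with p = 0.913 and p = 0.891 in the authors' deposited tables. The single-end ratio of 1.02 had a 95% interval of 0.777 to 1.33. Over both experiments combined the ratio was 1.01, with an interval of 0.792 to 1.29.

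tra-1, the transcription factor in which the somatic and germline branches meet, measured 11.7 FPKM in N2 and 10.7 FPKM in HC125 with paired ends, against 20.9 FPKM in N2 and 20.6 FPKM in HC125 with single ends. The ratios were 0.912 (95% interval 0.470 to 1.77) and 0.986 (0.673 to 1.44), with p = 0.689 and p = 0.912 in the authors' deposited tables. The slightly lower single-end value in HC125 became slightly higher once the median ratio of all tested genes was taken off. Of 5 genes known to be repressed by TRA-1 or to act downstream of it in male somatic cells, 3 and 2 were abundant enough to be tested, and 0 were called in the authors' deposited tables. egl-1, a cell death activator that TRA-1 keeps off in the egg-laying neurons of hermaphrodites, measured 0.631 and 1.23 FPKM with paired ends, against 3.85 and 4.01 FPKM with single ends. mab-3, a DM-domain factor, measured 1.17 and 0.915 FPKM with paired ends, against 0.258 and 0.279 FPKM with single ends. ceh-30, which protects male head neurons from death, measured 0.508 and 0.600 FPKM with paired ends, against 0.854 and 0.481 FPKM with single ends.

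fog-1 and fog-3, which direct germ cells to sperm, differed widely in level from each other. fog-1, an RNA-binding protein of the CPEB family, measured 16.4 FPKM in N2 and 14.0 FPKM in HC125 with paired ends, against 9.75 and 9.16 FPKM with single ends. fog-3, a Tob family protein, measured 0.821 and 1.07 FPKM with paired ends, against 0.472 and 0.4999 FPKM with single ends. In N2 the FPKM of fog-1 was 20.0 times that of fog-3 with paired ends and 20.6 times with single ends. In HC125 the factor was 13.0 and 18.3, and the change of this factor between strains had 95% intervals of 0.126 to 3.38 and 0.185 to 4.27. The strain ratio of fog-1 was 0.852 (0.375 to 1.93) and 0.940 (0.546 to 1.62), and that of fog-3 was 1.31 (0.314 to 5.45) and 1.06 (0.243 to 4.62). In the authors' deposited tables, fog-1 had p = 0.596 and p = 0.756, and fog-3 p = 0.613 and p = 0.934. fog-1 shares its deposited locus with rom-5, a rhomboid family gene on the opposite strand. rom-5 measured 20.7 and 21.4 FPKM with paired ends, against 30.3 and 28.9 FPKM with single ends. The WBcel235 annotation has no overlap between them, but the build of the deposited loci is not given. Without strand information, paired-end reads over any bases shared in that build cannot be assigned.

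Sperm markers, which are made after fog-1 and fog-3 have acted, held no call. With single ends the summed sperm markers of HC125 were 1.29 times those of N2, while fog-1 and fog-3 were at 0.940 and 1.06 times. gsp-3, a sperm phosphatase, had 4.72 FPKM in N2 and 8.30 FPKM in HC125 there, and its relative gsp-4 had 7.17 and 11.5 FPKM. Most of the higher sum in HC125 lay in gsp-3 and gsp-4, and the sum includes 6 markers too low to test. spe-44, a transcriptional regulator of sperm genes, had 12.4 and 13.2 FPKM. With paired ends the summed ratio was 0.920. The median log2(FPKM + 1) ratio of the tested sperm markers was -0.09 with paired ends and 0.11 with single ends. None of the tested sperm markers (14 with paired ends, 8 with single ends) was called, nor was the unadjusted p of any below 0.05, in the authors' deposited tables. gsp-3 came nearest, with p = 0.0709 in the single-end table.

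fog-2 permits sperm in hermaphrodites and is not needed in males. It measured 58.8 FPKM in N2 and 61.6 FPKM in HC125 with paired ends, against 26.3 FPKM in N2 and 25.4 FPKM in HC125 with single ends. The ratios were 1.05 (95% interval 0.583 to 1.88) and 0.964 (0.701 to 1.33), with p = 0.824 and p = 0.780 in the authors' deposited tables. Its close relative ftr-1 lies 1014 bp to the left on the same strand, with no other listed gene between. ftr-1 measured 29.1 and 30.8 FPKM with paired ends, against 11.1 and 11.6 FPKM with single ends, so fog-2 was at 2.02 and 2.00 times the level of ftr-1 in N2 and HC125, then at 2.37 and 2.195 times. The genes resemble each other in sequence, and the authors' counting could have split reads between them, so both values are uncertain. gld-1, the partner of fog-2, was far more abundant at 648 and 612 FPKM, then 435 and 398 FPKM.

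**Figure D2:**
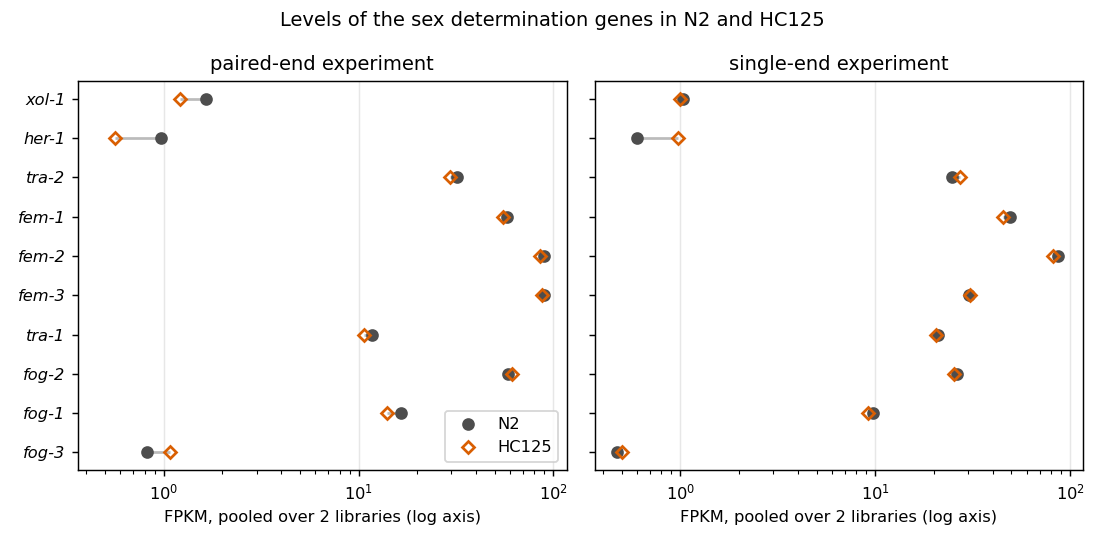
FPKM of the 10 genes in pathway order (log axis; filled circles N2, open diamonds HC125, each pooled over 2 libraries) in the paired-end and the single-end experiment. The fem genes, fog-2 and tra-2 lie above 20 FPKM in both, while xol-1, her-1 and fog-3 lie below 2 FPKM.

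The order of the levels differed between strains in 1 swap of neighbours per experiment, her-1 with fog-3 with paired ends and tra-2 with fog-2 with single ends. In the paired-end experiment fem-3 ranked first with a geometric mean over strains of 88.9 FPKM, followed by fem-2 at 87.4 FPKM, fog-2 at 60.2 FPKM and fem-1 at 56.5 FPKM. Then came tra-2, fog-1 and tra-1, followed by xol-1, fog-3 and her-1. Among neighbours in that order, only tra-2 over fog-1 (log2 gap 1.02 ± 0.51, implied SE) and tra-1 over xol-1 (2.98 ± 0.53) exceeded the 95% interval of the gap. In the single-end experiment fem-2 ranked first at 84.3 FPKM and exceeded fem-1 (0.83 ± 0.18), which exceeded fem-3 (0.63 ± 0.17). fem-3, tra-2, fog-2 and tra-1 followed without a gap beyond the error between neighbours, then fog-1, xol-1, her-1 and fog-3. The drops from tra-1 to fog-1 (1.14 ± 0.24) and from fog-1 to xol-1 (3.22 ± 0.46) were beyond it. These intervals are not adjusted for the number of gaps and take the errors of the strains as independent. They come from the errors of strain ratios, so they leave out any bias of a gene that both strains share. A gap beyond its interval therefore describes 1 experiment only. The FPKM of fem-3 was 1.55 and 1.59 times that of fem-1 with paired ends, against 0.613 and 0.679 times with single ends.

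Ratios between genes lay closer together between strains than between experiments for most pairs. The FPKM of fem-3, which promotes male fate, was 2.82 times that of tra-2, which opposes it, in N2 and 2.98 times in HC125 in the paired-end experiment. With single ends it was 1.22 and 1.13 times. The ratio of fem-3 to tra-2 thus changed between strains by a factor of 1.06 (95% interval 0.303 to 3.68) and 0.926 (0.502 to 1.71). fem-3 over fem-2 was 1.01 and 1.03 in the paired-end experiment against 0.348 and 0.376 in the single-end experiment. tra-2 over tra-1 was 2.72 and 2.76 against 1.19 and 1.32. fem-1 over fem-2 differed less, with 0.647 and 0.645 against 0.568 and 0.554.

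Of the 21 pairs among the 7 genes at 5 FPKM or more in every pooled value, 19 shifted more between experiments than between strains. The limit of 5 FPKM was set after the values were seen. The pairs share genes and are not independent, and the share over pairs of other genes was not computed. The count is therefore not a trait particular to these genes. The larger of each pair's strain shifts had a median of 0.15 on the log2 scale and reached at most 0.30, for fog-1 and fog-2. The smaller of its experiment shifts had a median of 0.87 and reached 2.41, for tra-1 and fem-3. The exceptions were tra-2 with fem-1 and tra-2 with fem-2. Kit, read layout and strandedness differ between the experiments together with any difference between the cultures, so these cannot be told apart. Summed sperm markers also differed between the tables, which were normalized separately (108 against 32.0 FPKM in N2). So did summed oocyte markers (6821 against 11823 FPKM), and the part of both marker lists in the shifts was not tested.

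**Figure D3:**
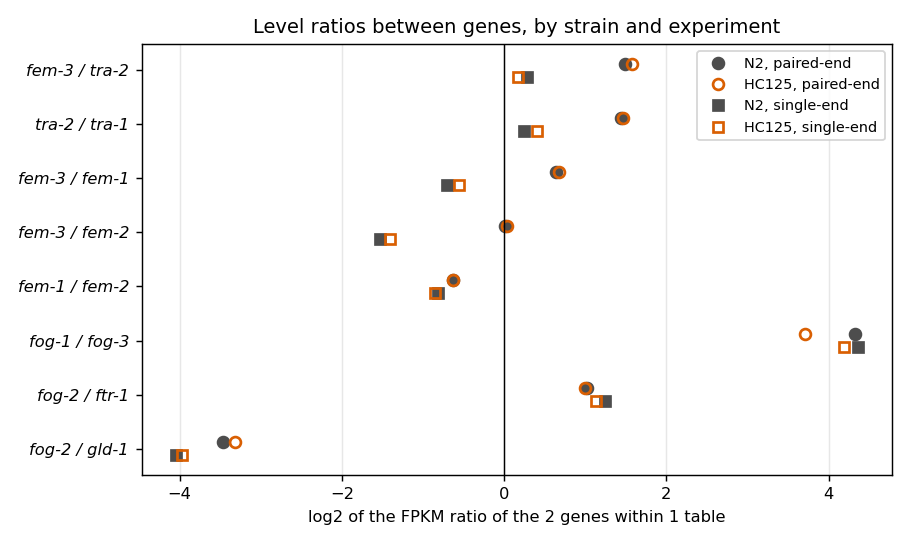
Log2 of the FPKM ratio of gene pairs within 1 table (filled symbols N2, open symbols HC125; circles paired-end, squares single-end). For fem-3 over fem-2 the circles sit near 0 and the squares near -1.5, with the strains side by side in each experiment.

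No difference of a strain ratio between the experiments passed its test among the 10 genes. A z test of the single-end minus the paired-end log2 ratio on the implied errors gave a smallest p of 0.548 among the 10 genes, for her-1, and 0 of 10 had a p under 0.05. Over all 12921 genes with an error in both tables, 0.317% had such a p, and 0.00774% passed after Benjamini-Hochberg adjustment. The ratio lay on the same side of 1 in both experiments for tra-1, fem-1, fem-2, fog-1, fog-3 and xol-1, which makes 6 of the 10, although tra-1 and xol-1 change side with single ends once centred on the median of all tested genes. It lay on opposite sides for tra-2, fem-3, fog-2 and her-1. The share of all genes on the same side was not computed, so this count says little about the 10 genes. The implied errors are wider than those that the deposited p-values give for all 10 genes in both tables, so this test can miss differences.

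The 10 genes are spread over all 6 chromosomes. Positions are those of the deposited loci, counted from 1, in a build not given in the sources used here. On chromosome III the files place fem-2 (WBGene00001412) at 632024 to 634626 and tra-1 (WBGene00006604) at 11172092 to 11195207. On chromosome IV they place fem-1 (WBGene00001411) at 5533140 to 5537930 and fem-3 (WBGene00001413) at 9104966 to 9107610. Chromosome V, which also holds sid-1, carries her-1 (WBGene00001842) at 9697129 to 9701552 and fog-2 (WBGene00001482) at 20199255 to 20200641. Chromosome I carries fog-1 (WBGene00001481) and fog-3 (WBGene00001483), the latter at 10016778 to 10018115. tra-2 (WBGene00006605) lies on chromosome II, and xol-1 (WBGene00006962) on chromosome X at 8041327 to 8044409. The deposited loci of tra-2 and fog-1 span their neighbours too, so no positions are given for them.

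The genes differ in size and number of isoforms, which the pooled gene values do not resolve. All 10 are protein-coding in the WBcel235 annotation. tra-1 has a longest transcript of 4673 bp in 18 exons and tra-2 one of 4663 bp in 23 exons. At the other end, fog-3 has a single transcript of 998 bp in 8 exons and her-1 a longest transcript of 1125 bp in 4 exons. fem-1 (2348 bp), fog-1 (2118 bp), xol-1 (1980 bp), fem-2 (1794 bp), fem-3 (1666 bp) and fog-2 (1151 bp) lie between. tra-1, fem-1, fog-2 and her-1 have 2 annotated transcripts each, tra-2, fem-3 and xol-1 have 3, and fog-1 has 5. tra-2 alone of the 10 overlaps another annotated gene in WBcel235.

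Genes of the X signal, which act before xol-1, and of the sdc group, which act before her-1, were at low to middle levels in both strains. Of 8 genes of the X signal and of the sdc group, which repress her-1 in XX animals, 0 were called in either of the authors' deposited tables. Their median log2(FPKM + 1) ratio was -0.09 with paired ends and -0.14 with single ends. With paired ends 6 of 8 were lower in HC125, where 58.3% of all tested genes were lower, and with single ends 8 of 8, where 60.0% were lower. sea-1, a T-box factor that promotes xol-1, measured 15.99 and 13.8 FPKM with paired ends, against 32.0 and 30.3 FPKM with single ends. ceh-39, a homeodomain factor on the X that represses it, measured 14.9 and 15.04 FPKM with paired ends, against 23.5 and 21.6 FPKM with single ends. The nuclear receptor gene sex-1 measured 17.2 and 16.03 FPKM with paired ends, against 16.5 and 15.2 FPKM with single ends. sdc-3 had the smallest p of the group, 0.0617 in the single-end table, with 2.55 FPKM in N2 and 1.89 FPKM in HC125. With paired ends the levels were 5.22 and 6.49 FPKM. This gene was chosen after its values were seen.

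The dosage compensation genes, which lower X expression in XX animals, had 0 of 7 called in either of the authors' deposited tables, with medians of -0.10 and -0.06. dpy-30, also part of a histone methyltransferase complex, measured 148 and 144 FPKM with paired ends, against 256 and 282 FPKM with single ends. The condensin subunit gene capg-1 measured 72.2 and 67.6 FPKM with paired ends, against 18.4 and 18.9 FPKM with single ends. dpy-26, another condensin subunit gene, measured 57.2 and 51.1 FPKM with paired ends, against 33.0 and 30.03 FPKM with single ends.

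Partners of the TRA and FEM proteins showed no call among the 8 genes found, with medians of -0.02 and -0.05. The list holds the cullin gene cul-2, whose ligase the FEM proteins join, and its small subunits. The RING subunit gene rbx-1 measured 370 and 359 FPKM with paired ends, against 688 and 704 FPKM with single ends. The elongin gene elc-1 measured 144 and 132 FPKM with paired ends, against 126 and 103 FPKM with single ends. sel-10, an F-box gene, measured 120 and 113 FPKM with paired ends, against 93.0 and 91.7 FPKM with single ends.

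The 27 genes listed for the sperm to oocyte switch, among them the fog-2 relative ftr-1, were all tested, and 0 were called or reached an unadjusted p below 0.05 in either of the authors' deposited tables. Of all tested genes 0.212% and 0.122% were called, and 1.28% and 2.39% reached such a p, so a count of 0 among 27 says little. The paired-end median of the 27 was -0.07 beside -0.03 over all tested genes, with 8 higher and 19 lower in HC125. With single ends it was -0.01 beside -0.04, with 13 higher and 14 lower. Among all tested genes 58.3% and 60.0% were lower. mag-1, the worm mago nashi gene, measured 196 and 219 FPKM with paired ends, against 228 and 243 FPKM with single ends. gld-3, a Bicaudal-C relative that acts against FBF, measured 185 and 174 FPKM with paired ends, against 75.7 and 79.2 FPKM with single ends. The FBF genes themselves are near copies, so their values may share reads: fbf-1 measured 17.4 and 19.7 FPKM with paired ends, against 9.87 and 10.3 FPKM with single ends, and fbf-2 measured 17.1 and 18.1 FPKM with paired ends, against 14.1 and 13.5 FPKM with single ends (both named after their values were seen).

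Oocyte markers, whose cells follow from the switch, had a lower value in HC125 for 14 of 14 tested genes with paired ends and 13 of 13 with single ends, where rme-2, the yolk receptor gene, had no finished test and was listed slightly higher in HC125, at 354 FPKM beside 347 FPKM in N2. The share of lower genes over all tested genes was 58.3% and 60.0%. None of these markers was called or reached an unadjusted p below 0.05 by the authors' deposited tables, and the medians were -0.13 and -0.09. The eggshell proteoglycan gene cpg-1 measured 742 and 648 FPKM with paired ends, against 1528 and 1471 FPKM with single ends. perm-2, of the permeability barrier of the eggshell, measured 660 and 581 FPKM with paired ends, against 2710 and 2497 FPKM with single ends. Germline markers had medians of 0.01 and -0.02, with the P granule helicase gene glh-1 at levels of 219 and 253 FPKM with paired ends, against 265 and 227 FPKM with single ends. Early embryo markers, of which 7 and 6 could be tested, had medians of 0.14 and -0.11. Neither they, nor germline markers, nor the male markers (1 and 2 tested, medians of -0.01 and -0.07) held a call in the authors' deposited tables.

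**Figure D4:**
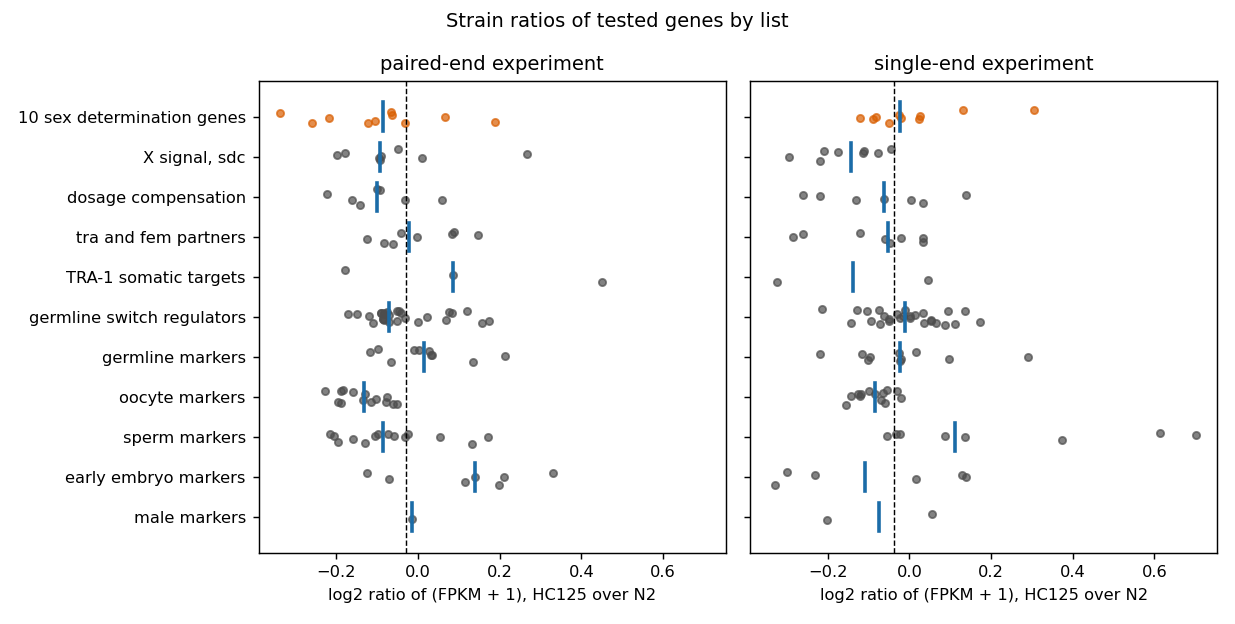
Log2 ratio of FPKM + 1, HC125 over N2, of every tested gene of each list (points, with random vertical jitter; blue bars are list medians, the dashed line is the median of all tested genes) in both experiments. The 10 sex determination genes lie between -0.34 and 0.31, and sperm markers reach 0.70 in the single-end experiment.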

How the data were processed

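Per the submitters' processing notes the tools were TopHat2 2.0.1 and Cufflinks 2.2.1; build, annotation and settings were not given in the sources used here. Each experiment has 1 table in the Cuffdiff layout, per the file headers. The authors computed the FPKM values, the test statistic (a score per gene) and the p-value and q-value of HC125 against N2, and deposited 1 pooled FPKM per strain. The q-values match a Benjamini-Hochberg adjustment of the p-values over tested genes. Genes too low to test (5420 and 7375) or without a finished test were left out of counts and medians over tested genes.

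Ratios are HC125 over N2, of FPKM or, for lists, of FPKM + 1, which understates changes of low genes. Errors are the log2 ratio divided by the authors' statistic, and intervals assume normal errors. Starts of loci count from 0 in the files: where gene ends match the WBcel235 annotation of Ensembl release 115, the most frequent start offset was -1, for 2515 genes (43.8%), so 1 was added. Of the listed genes 3 names were not matched.

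The genes and lists were chosen with earlier results of these data known, and lists got no test. Genes named are the 10 members, sid-1, ftr-1 as the relative of fog-2, and genes that share a deposited locus with a member. Per list up to 3 genes of highest mean FPKM are named where none was called. rme-2 is named outside this rule, as the oocyte marker without a finished single-end test, and others are marked. Alternatives were other q limits, an FPKM filter, other pseudocounts, centring and a Stouffer combination. The calling, combining and difference steps were tested on simulated data. Python 3.11.15, scipy 1.17.1 and pandas 2.3.3 were used.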

Additional observations from a re-analysis of the deposited data

How the results depend on the processing

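The count of sex determination genes called stayed at 0 in both tables at a q of 0.01, at a q of 0.1, among genes with 1 FPKM or more in a strain and under the Stouffer combination. At a q of 0.01 the number of genes called over each whole table dropped from 32 and 16 to 0, since the smallest deposited q lies above that limit. The Stouffer combination called 35 genes, against 16 in the single-end table. The number of the 10 genes with an interval within 2-fold in the paired-end experiment was 3 with the error from the test statistic, 5 with that from the deposited p and 7 with both experiments combined, the last 2 chosen after seeing the data. Of 80 recomputed ratios of single genes, 77 kept their direction. In the single-end experiment tra-1 went from -0.02 to 0.019 (minus the median of all tested genes) and to 0.0042 (minus that of germline markers), and xol-1 from -0.03 to 0.012 (minus the median of all tested genes); each is a shift of a ratio near 0. The median of the 10 genes in the single-end experiment likewise went from -0.02 to 0.02 when centred on all tested genes. No paired analysis was possible because the tables hold 1 pooled value per strain, and for the same reason no replicate could be left out. The pooled values give no depth, and her-1, fog-3 and xol-1 are limited most: their intervals allow changes of over 2-fold in either direction.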
